A study of Mus musculus with 8 samples.

Results

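The endothelial bone morphogenetic protein (BMP) axis was followed through 10 genes in RNA of sorted mouse liver endothelial cells: the ligands Bmp2, Bmp4 and Bmp6, the receptor components Acvrl1, Eng and Bmpr2, the inhibitory SMADs Smad6 and Smad7, and the response genes Id1 and Id3. The genes were chosen by name, with earlier results of these data known. Each was read through the probe set that carries its symbol alone, and all 10 were found, with 1 probe set each, among the 21160 genes tested. The arrays came from C57BL\6N bone-marrow chimeras that had been irradiated at 8 weeks of age with 9 Gy in 2 doses of 4.5 Gy and given 5000 YFP-labelled LSK cells, the marrow fraction in which blood stem cells are found. Livers were taken 1 month later, and cells without CD45 on their surface and with CD31 and CD146 were sorted by YFP into a marrow-derived (YFP+) and a resident (YFP-) population. Each was measured on 4 arrays that the labels call biological replicates. Both populations thus came from irradiated and transplanted hosts, the YFP+ cells from donor cells given after irradiation, and no unirradiated animal was among the samples. The sources used here do not say what drives the YFP label or whether livers were pooled. The comparison asks how the transcripts of the sorted YFP+ population differ from those of the YFP- population beside it. The names marrow-derived and resident follow the sort and are not a test of cell identity.

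BMP ligands bind a pair of type I and type II receptor kinases, which phosphorylate SMAD transcription factors that enter the nucleus and switch on target genes, among them the ID genes and the inhibitory SMADs that damp the signal again. In endothelium the type I receptor (Acvrl1), the type II receptor (Bmpr2) and the co-receptor endoglin (Eng) transmit circulating BMP signals, and mutations in these genes in humans cause vascular malformation or pulmonary hypertension syndromes. Liver sinusoidal endothelial cells are also a source of BMP ligand: Bmp2 and Bmp6 made there instruct hepatocytes to produce the iron hormone hepcidin.

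None of the 10 genes passed the test between the populations (limma, Benjamini-Hochberg adjustment over all genes, threshold 0.05), against 1.61% of all genes called, 0.336% with smaller values in YFP+ cells. At an unadjusted p under 0.05, 4 of the 10 (Bmp2, Bmp4, Eng and Smad7) passed, all with smaller values in YFP+ cells, against 13.5% of all genes in either direction and 6.34% in that direction. The same 4 had a p under 0.05 in the authors' deposited table, where 11.5% of all genes did, 5.74% with smaller YFP+ values. That table rests on the same arrays, so it is no independent support. The values of YFP+ and YFP- arrays did not overlap for Bmp2, Eng and Smad7, which was so for 8.62% of all genes and, with YFP+ below YFP-, for 3.82%. Differences were negative for 8 of the 10 genes and for 49.7% of all genes, with a median of -0.27 log2 over the 10 and of 0.00188 over all genes.

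These counts are read beside the levels of endothelial transcripts in general. Of 18 measured pan-endothelial marker genes, 15 were brighter on all 8 arrays than the 95th percentile of that array's negative control probe sets, as were all 10 sinusoidal marker genes. All 18 and all 10 had negative differences, with medians of -0.30 and -0.25 log2, and 1 of the 18, the angiopoietin receptor gene Tek, passed the test. At a limma unadjusted p under 0.05, 11 of the 18 and 4 of the 10 sinusoidal genes passed, all with smaller YFP+ values. The groups did not overlap for 10 of the 18 and 5 of the 10, all with YFP+ below YFP-. The smaller YFP+ values were thus not particular to the BMP axis genes. Among the 2014 genes above that percentile on every array, 62.3% had a negative difference and 13.8% had all YFP+ below all YFP- values. Of these 2014, 349 had a limma unadjusted p under 0.05 with smaller YFP+ values. In RNA from a sorted population, fewer cells of a type and less RNA per cell cannot be told apart. Leukocyte transcripts moved the other way: all 14 pan-leukocyte genes had positive differences and 6 were called, with a list mean of 7.12 to 7.43 log2 on YFP- and 8.31 to 10.04 log2 on YFP+ arrays. Bile duct genes (7 of 10 called, 7.86 to 8.22 against 8.87 to 9.48 log2) and platelet genes (3 of 9 called, 7.54 to 7.58 against 8.49 to 8.77 log2) were higher as well. Of 12 hepatocyte genes, all with positive differences, Alb, Ambp and Ttr were called, with list means of 7.58 to 7.74 log2 on YFP- and 7.89 to 8.62 log2 on YFP+ arrays. Stellate and mesenchymal genes had no call among 11, and erythroid genes none among 5. The part of these other cell types in the BMP values was not tested.

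Promoter sequence was matched for 6 of the 10 genes, Bmp4, Bmp6, Eng, Bmpr2, Smad6 and Id3, and was taken from RefSeq (GRCm38.p6) as the 250 bases before the annotated start. The windows were searched on both strands for letters known to be bound by SMAD proteins. A first motif was GGCGCC, which reads the same on either strand. Another was GTCTG. Its opposite strand reads CAGAC. The last was GCCGNCGC. The 4 windows with a match are shown because they are the places where SMAD-type letters meet genes of this axis, with the matched letters in capitals, for Bmp6 (chr13:38345466-38345715, plus strand), Eng (chr2:32646345-32646594, plus strand), Bmpr2 (chr1:59764029-59764278, plus strand) and Id3 (chr4:136143572-136143821, plus strand).
Bmp6: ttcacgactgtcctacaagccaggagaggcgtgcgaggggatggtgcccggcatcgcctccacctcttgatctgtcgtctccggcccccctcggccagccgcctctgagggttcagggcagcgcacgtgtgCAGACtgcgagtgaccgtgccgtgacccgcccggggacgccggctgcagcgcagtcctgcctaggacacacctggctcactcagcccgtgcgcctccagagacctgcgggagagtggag
Eng: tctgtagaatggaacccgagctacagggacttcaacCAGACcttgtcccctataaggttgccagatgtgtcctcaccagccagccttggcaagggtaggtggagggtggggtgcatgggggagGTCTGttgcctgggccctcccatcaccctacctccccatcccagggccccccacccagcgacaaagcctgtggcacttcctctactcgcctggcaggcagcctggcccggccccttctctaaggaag
Bmpr2: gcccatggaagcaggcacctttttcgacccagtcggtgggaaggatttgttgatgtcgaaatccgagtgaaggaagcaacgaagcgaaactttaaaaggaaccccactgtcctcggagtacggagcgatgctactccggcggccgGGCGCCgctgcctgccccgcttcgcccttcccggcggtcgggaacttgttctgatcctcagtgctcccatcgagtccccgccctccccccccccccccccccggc
Id3: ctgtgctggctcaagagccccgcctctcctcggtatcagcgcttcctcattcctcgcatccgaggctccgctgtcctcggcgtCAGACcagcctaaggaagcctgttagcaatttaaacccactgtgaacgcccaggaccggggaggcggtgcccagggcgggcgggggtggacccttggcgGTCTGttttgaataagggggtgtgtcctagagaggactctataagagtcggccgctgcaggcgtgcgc
The Eng window held both orientations of the GTCTG letters, at 123 to 127 and 210 to 214 bases before the start, and so did the Id3 window, at 64 to 68 and 163 to 167 bases. The Bmp6 window held CAGAC at 115 to 119 bases, and the Bmpr2 window held GGCGCC at 100 to 105 bases before the start. The GTCTG letters are common, being present in 42.2% of all 32851 promoter windows of this length, whereas GGCGCC was in 9.59% and GCCGNCGC in 6.89%. No match was in the Bmp4 and Smad6 windows. Matches are a description of letters and not of binding.

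Values below are log2 normalized intensities in the order of replicates 1 to 4, and levels of different genes are not compared, since each probe set has its own brightness. All 10 genes were above the median of the negative controls on all 8 arrays. Bmp2, Bmp6, Eng, Bmpr2 and Id3 were also above their 95th percentile on all 8, Smad6 and Id1 on 7, Bmp4 on 3, and Acvrl1 and Smad7 on none, so folds of the last 3 genes in particular may be understated. The controls themselves had medians of 119.5 to 127.7 intensity units on YFP- and 103.2 to 113.0 on YFP+ arrays. The part of this shift in the values of Bmp4, Acvrl1 and Smad7 was not tested.

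**Figure D1:**
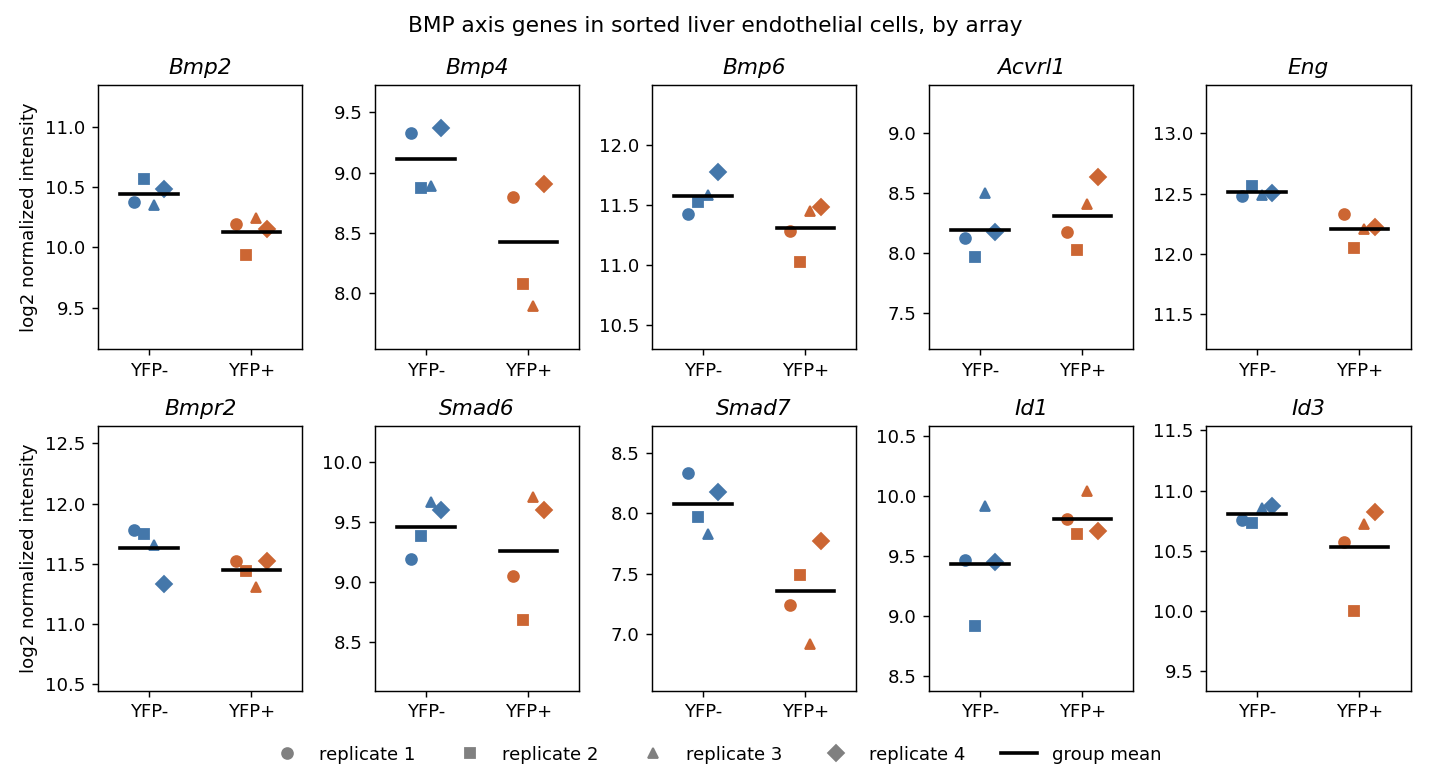
Log2 normalized intensity (y axis) of the 10 BMP axis genes on the 4 YFP- (blue) and 4 YFP+ (orange) arrays, with 1 marker shape per replicate and a bar at each group mean; every panel spans the same log2 range. The groups separate for Bmp2, Eng and Smad7 and overlap for the other 7 genes.

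Among the ligands, Bmp2, which sinusoidal cells secrete toward hepatocytes, stood at 10.38, 10.57, 10.36 and 10.48 on the YFP- arrays and at 10.19, 9.93, 10.24 and 10.15 on the YFP+ arrays. Every YFP+ value was below every YFP- value, with a gap of 0.11 between the nearest arrays. Resident cells had a mean of 10.45 ± 0.10 and marrow-derived cells of 10.13 ± 0.14 (SD, n = 4). The log2 difference was -0.32 (SE 0.12, 95% interval -0.57 to -0.06), or 1.25-fold lower, and missed the threshold (limma adjusted p = 0.244). Bmp6, the other iron-regulating ligand of these cells, stood at 11.42, 11.53, 11.58 and 11.77 on YFP- and at 11.29, 11.03, 11.45 and 11.48 on YFP+ arrays. Its groups overlapped, since YFP+ replicates 3 and 4 lay above the lowest YFP- array. The log2 difference of Bmp6 was -0.27 (SE 0.14, 95% interval -0.57 to 0.04, limma adjusted p = 0.450), and it was -0.17 without YFP+ replicate 2. Bmp4, a ligand of vascular and stromal cells, stood at 9.33, 8.87, 8.89 and 9.37 on YFP- and at 8.80, 8.08, 7.89 and 8.91 on YFP+ arrays. Its YFP+ arrays split into replicates 1 and 4, near the YFP- range, and replicates 2 and 3, far under it. The Bmp4 log2 difference was -0.70 (SE 0.24, 95% interval -1.23 to -0.16, limma adjusted p = 0.216), and without YFP+ replicates 2 and 3 it was -0.26 (limma adjusted p = 0.580).

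Of the receptor components, Eng, which encodes the co-receptor endoglin, was the steadiest of the 10 genes in resident cells. It stood at 12.48, 12.56, 12.49 and 12.51 on YFP- and at 12.33, 12.04, 12.21 and 12.23 on YFP+ arrays, with no overlap and a gap of 0.15. The SD of resident arrays was 0.04, that of marrow-derived arrays 0.12. The log2 difference was -0.31 (SE 0.11, 95% interval -0.55 to -0.07), or 1.24-fold lower, with a limma adjusted p = 0.217. Trended and robust variance moderation brought this to an adjusted p = 0.0537 in limma. Bmpr2, the type II receptor kinase, stood at 11.78, 11.75, 11.66 and 11.33 on YFP- and at 11.52, 11.44, 11.31 and 11.52 on YFP+ arrays. YFP- replicate 4 lay among the YFP+ values, and the difference was -0.18 log2 (SE 0.13, 95% interval -0.47 to 0.11, limma adjusted p = 0.628), and -0.28 without that array. Acvrl1, the endothelial type I receptor kinase, stood at 8.13, 7.97, 8.50 and 8.18 on YFP- and at 8.18, 8.02, 8.41 and 8.63 on YFP+ arrays. The Acvrl1 groups interleaved, with a difference of 0.12 log2 (SE 0.16, 95% interval -0.25 to 0.48, limma adjusted p = 0.844). Without YFP+ replicate 4 it was 0.01, without YFP- replicate 2 it was 0.04, and without YFP- replicate 3 or YFP+ replicate 2 it was 0.22 and 0.21. The probe set exceeded the control percentile on no array, so that interval sets no bound on the transcript. The 95% intervals of Eng and Bmpr2 lay within 2-fold in either direction.

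The inhibitory SMADs block receptor signalling from within the cell. Smad7, which blocks both TGF-beta and BMP receptors, stood at 8.34, 7.97, 7.83 and 8.17 on YFP- and at 7.24, 7.49, 6.91 and 7.77 on YFP+ arrays. It did not overlap between the groups, although the gap was 0.06. Resident cells had a mean of 8.08 ± 0.22 and marrow-derived cells of 7.35 ± 0.37 (SD, n = 4). Its log2 difference of -0.73 (SE 0.19, 95% interval -1.15 to -0.30), or 1.66-fold lower, did not pass the test over all genes (limma unadjusted p = 0.00329, adjusted p = 0.105). As for Acvrl1, the Smad7 probe set exceeded the control percentile on no array, so its interval sets no bound on the transcript. In the authors' deposited table, which rests on the same arrays, Smad7 had a fold of 0.613 and a p of 0.0122. Smad6, which acts mainly on BMP receptors, stood at 9.20, 9.38, 9.67 and 9.60 on YFP- and at 9.05, 8.68, 9.71 and 9.60 on YFP+ arrays. YFP+ replicates 1 and 2 were below all YFP- arrays, while replicate 3 was above all of them. The Smad6 difference was -0.20 log2 (SE 0.22, 95% interval -0.70 to 0.30, limma adjusted p = 0.792), and was -0.00648 without YFP+ replicate 2. Leaving out YFP+ replicate 3 or 4 gave -0.35 and -0.31, and leaving out YFP- replicate 3 or YFP+ replicate 1 gave -0.13 each.

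The ID genes encode helix-loop-helix proteins that bind and block basic helix-loop-helix transcription factors, and they are common readouts of BMP receptor activity. Id1 stood at 9.47, 8.92, 9.91 and 9.45 on YFP- and at 9.81, 9.68, 10.04 and 9.71 on YFP+ arrays. All 4 YFP+ values were above the YFP- mean, but YFP- replicate 3 was above 3 of them. The difference was 0.37 log2 (SE 0.19, 95% interval -0.06 to 0.80, limma adjusted p = 0.456), and it was 0.20 without YFP- replicate 2 and 0.53 without YFP- replicate 3. Id3, in linear intensity units, stood at 1729, 1697, 1855 and 1872 on YFP- and at 1520, 1024, 1685 and 1813 on YFP+ arrays. YFP+ replicate 2 lay far below the other 7 arrays, and YFP+ replicate 4 lay within the YFP- range. The Id3 difference was -0.27 log2 (SE 0.17, 95% interval -0.66 to 0.11, limma adjusted p = 0.565), and it was -0.10 without YFP+ replicate 2.

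**Figure D2:**
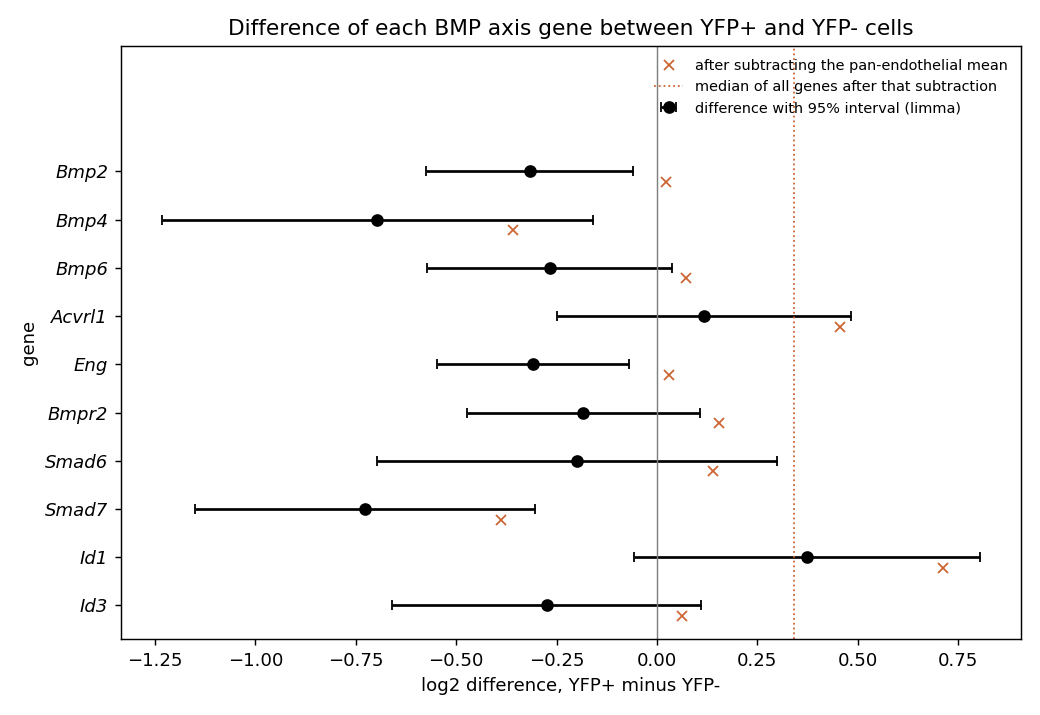
Log2 difference (YFP+ minus YFP-, x axis) of each BMP axis gene (y axis), with 95% intervals from limma as black bars, and as crosses the difference after each array's pan-endothelial mean was subtracted; the dotted line is the median of all genes after that subtraction. Intervals of Bmp2, Bmp4, Eng and Smad7 lie below 0, no gene passed the adjusted test, and the subtraction moves every gene, like the median of all genes, by 0.34 to the right.

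The differences were also set against the endothelial transcripts on the same array, by subtracting each array's mean of the 18 pan-endothelial genes. This adds the same 0.34 log2 to the difference of every gene, so any difference between -0.34 and 0 turns positive, and the order among genes stays as it was. The median of all genes was then 0.34 log2, and 15.8% of all genes were called. Against the pan-endothelial mean the log2 differences were 0.02 for Bmp2, 0.03 for Eng, 0.06 for Id3, 0.07 for Bmp6, 0.14 for Smad6 and 0.16 for Bmpr2, none of which was called by limma. Bmp4 (-0.36) and Smad7 (-0.39) were negative without a call, and Acvrl1 was at 0.46 (limma adjusted p = 0.0685). Id1 was called against this mean, with a log2 difference of 0.71 (SE 0.19, limma adjusted p = 0.0336) and no overlap between the groups. Relative to the median of all genes the differences were, as without the subtraction, -0.73 for Smad7, -0.70 for Bmp4, -0.32 for Bmp2, -0.31 for Eng, -0.28 for Id3, -0.27 for Bmp6, -0.20 for Smad6, -0.19 for Bmpr2, 0.12 for Acvrl1 and 0.37 for Id1.

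Whether genes of the same role differed unequally was tested with within-array log2 ratios for 6 pairs, by an exact two-sided permutation test over the 8 arrays, which cannot go below p = 0.0286. Adjusted over the 6 pairs, 1 pair at that floor would have an exact p = 0.171, and at least 4 pairs would have to reach it to pass 0.05, so the test could hardly make a call, and none was made. The Id1 to Id3 ratio had a mean of -1.36 ± 0.36 in YFP- and -0.72 ± 0.33 in YFP+ cells, a difference of 0.65 (exact p = 0.0571, adjusted over the 6 pairs 0.257). YFP+ replicate 4, at -1.11, and YFP- replicate 3, at -0.94, were the arrays that overlapped. The Eng to Acvrl1 ratio differed by -0.43 (exact p = 0.0857, adjusted 0.257), Smad6 to Smad7 by 0.53, Bmp4 to Bmp2 by -0.38 and Acvrl1 to Bmpr2 by 0.30, the last 3 with an adjusted exact p = 0.343 each. Each of these ratios holds Acvrl1 or Smad7, above the control percentile on no array, or Bmp4, above it on 3. Values this dim set no bound on the transcript, so these ratios cannot tell whether the genes of a pair differed unequally. Without YFP+ replicate 3 the Smad6 to Smad7 difference was 0.23 and that of Bmp4 to Bmp2 -0.16, and without YFP- replicate 2 that of Acvrl1 to Bmpr2 was 0.19. Bmp6 to Bmp2, the ratio of the iron-regulating ligands, had the smallest difference, 0.05 (exact p = 0.600), with means of 1.13 ± 0.16 and 1.18 ± 0.11 (SD, n = 4).

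**Figure D3:**
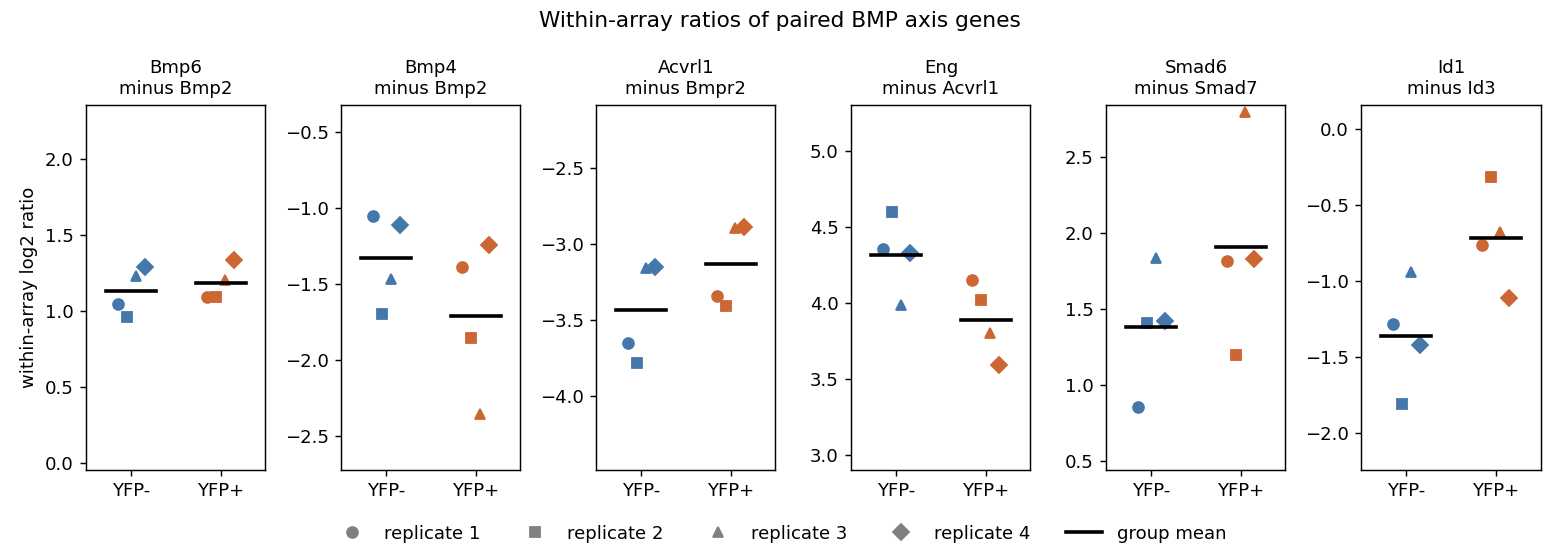
Within-array log2 ratio (y axis) of 6 pairs of BMP axis genes on the 4 YFP- (blue) and 4 YFP+ (orange) arrays, with a bar at each group mean; every panel spans the same log2 range. All 6 pairs overlap between the groups, the Bmp6 to Bmp2 ratio lies closest together, and the Id1 to Id3 ratio is higher on 3 of the 4 YFP+ arrays than on any YFP- array. Acvrl1 and Smad7 were above the control percentile on no array and Bmp4 on 3.

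The YFP+ arrays were not alike. Replicate 2 held the lowest YFP+ value of 7 of the 10 genes (Bmp2, Bmp6, Acvrl1, Eng, Smad6, Id1 and Id3) and replicate 3 that of the other 3 (Bmp4, Bmpr2 and Smad7), while replicate 4 held the highest of 6. The share of all genes with their lowest YFP+ value on replicate 2 was not counted. Replicate 2 also had the highest pan-leukocyte mean of the YFP+ arrays, 10.04 against 8.83, 8.31 and 9.00 log2 on replicates 1, 3 and 4, and the lowest pan-endothelial mean, 10.13 against 10.44, 10.53 and 10.33. Whether these means bear on the BMP values of replicate 2 was not tested. The background control probes were brightest on replicate 3, at a median of 87.5 intensity units against 76.0 to 81.5 on the other 7 arrays. None of the 10 genes was called without replicate 2, without replicate 3 or without both. On the YFP- arrays the pan-endothelial mean lay between 10.66 and 10.72 log2.

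**Figure D4:**
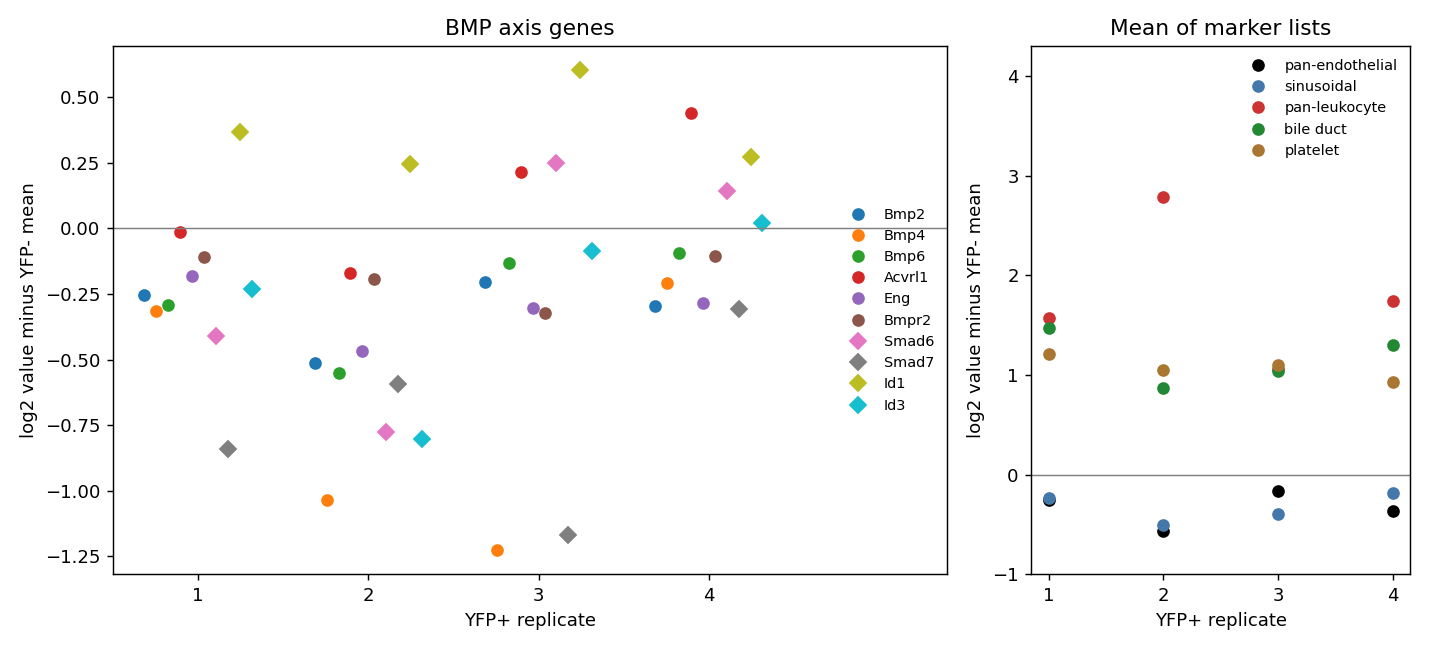
Left, log2 intensity of each BMP axis gene on the 4 YFP+ arrays (x axis, replicate number, which has no order) minus that gene's YFP- mean (y axis); right, the same for the mean of 5 marker lists. On replicate 2 the pan-leukocyte mean is highest, the pan-endothelial mean is lowest, and 7 of the 10 genes have their lowest YFP+ value, a link that was not tested. Bmp4, Bmpr2 and Smad7 are lowest on replicate 3.

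The rest of the pathway gave no call either. Of 51 other BMP genes in 5 lists, all measured, none passed the adjusted test in limma. At a limma unadjusted p under 0.05, 4 passed with positive and 3 with negative differences, where 13.5% of all genes passed in either direction. Groups did not overlap for 7 of the 51, against 8.62% of all genes. The median was -0.02 log2, and 40 of the 51 were above the control percentile on no array. The 11 other ligands, among them Gdf2 and Bmp10, the circulating ligands of Acvrl1, were all below that percentile on every array (median difference 0.02 log2). Of 10 other receptor genes, Tgfbr3, the co-receptor betaglycan, was the 1 above that percentile on all arrays. Tgfbr3 went from 11.06 ± 0.09 to 10.66 ± 0.24 log2 (SD, n = 4) without overlap, a difference of -0.39 (limma adjusted p = 0.216). Rgma, a BMP co-receptor, and Bmpr1a, a type I receptor, were dim and had differences of 0.55 (limma adjusted p = 0.107) and 0.49 log2 (limma adjusted p = 0.215) without overlap. On every YFP- array Bmpr1a, at 6.22 to 6.58 log2, lay below even the median of the negative controls, so its difference sets no bound on the transcript.

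All 6 genes of the other SMADs and the SMURF ubiquitin ligases had negative differences, with a median of -0.40 log2 and no call. Smad1, which carries the BMP signal to the nucleus, went from 10.27 ± 0.08 to 9.86 ± 0.29 log2 (SD, n = 4) without overlap, a difference of -0.41 (limma adjusted p = 0.242). Smad5, with the same function, had a difference of -0.50 and Smad9 of -0.61 log2 (limma adjusted p = 0.463 and 0.527). Both had overlapping groups, and the shared partner Smad4 had a difference of -0.02. Smad9 exceeded the control percentile on no array and varied widely on YFP- arrays (SD 0.88), and Smad5 exceeded it on 6 arrays. Of the 6 genes, 3 exceeded it on all 8. The 16 secreted antagonists had a median of 0.03 log2, with the largest difference for Nbl1 (0.47, limma adjusted p = 0.335), and 13 of them were above the control percentile on no array. The 8 other response genes had a median of 0.01 log2. Their largest differences were -0.43 for Id4, 0.40 for Hey2 and 0.24 for Hey1 (limma adjusted p = 0.341, 0.487 and 0.738), and Id2, the 1 of the 8 above the percentile on all arrays, had -0.02 log2. Hamp, the hepcidin gene that endothelial Bmp2 and Bmp6 regulate in hepatocytes, was below the percentile on every array. So were 8 of the 12 hepatocyte marker genes. Alb, which encodes albumin, was the 1 of the 12 above it on all 8 arrays.

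**Figure D5:**
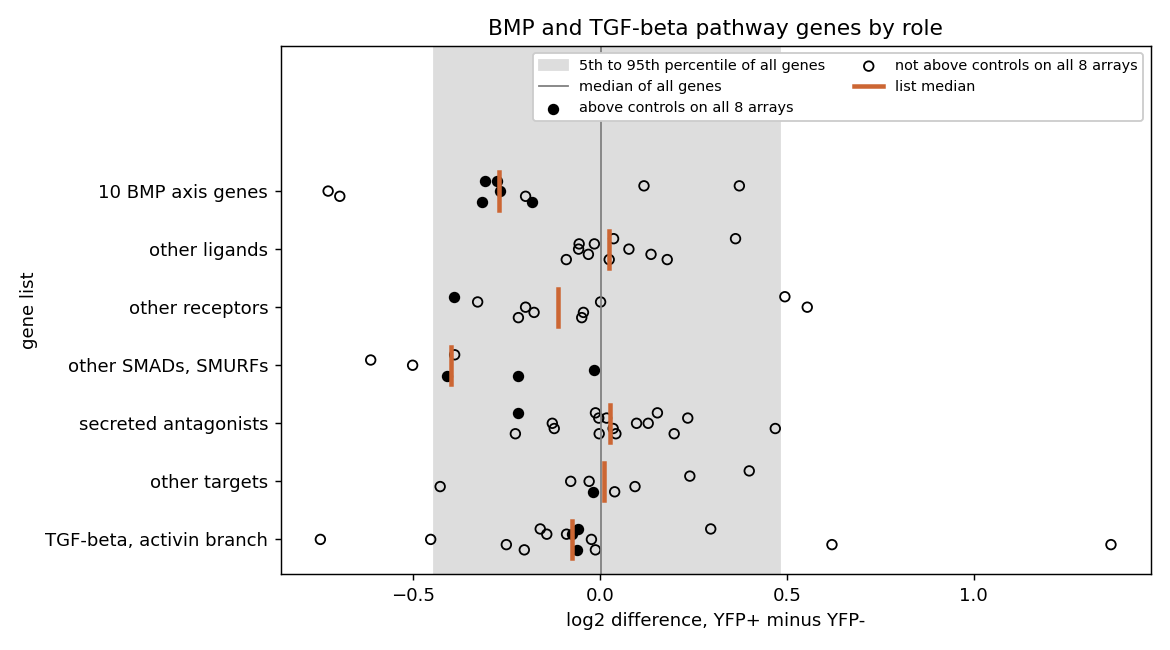
Log2 difference (YFP+ minus YFP-, x axis) of the 10 BMP axis genes and of 6 lists of other pathway genes (y axis); filled points were above the 95th percentile of negative controls on all 8 arrays, orange bars are list medians, and grey marks the 5th to 95th percentile of all genes. The medians of the 10 genes (-0.27) and of the other SMADs and SMURFs (-0.40) lie left of 0, those of the other lists between -0.11 and 0.03.

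Genes whose profile over the 8 arrays was most like each gene were sought among 1891 of the 2014 genes above the control percentile on every array, leaving out the 10 genes themselves, predicted or clone-named genes and genes of the X or Y or of no assigned chromosome, by Pearson's r of log2 intensity, given as a description because the arrays share 2 groups. The genes named were picked as the most alike of 1891 on these arrays, so a high r is favoured by the choice and is no independent test. Bmp2 was most like Jam2, a junctional adhesion molecule (r = 0.980), and Pros1, the anticoagulant protein S (r = 0.960). With group means removed, on the same arrays, these were 0.934 and 0.949. Bmp6 was most like Aqp1, a water channel (r = 0.979), and C1qtnf1 (r = 0.973). Eng was most like Abi3 (r = 0.987), Bmp4 like Usp8 (r = 0.979), Smad7 like Cnot4 (r = 0.974), Id3 like Dpysl3 (r = 0.963) and Smad6 like Dhx57 (r = 0.959). The closest genes were less alike for Bmpr2 (Prpf8, r = 0.928), Acvrl1 (Arl6ip1, r = 0.887) and Id1 (Rbx1, r = 0.862). None of these genes was itself called between the populations.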

How the data were processed

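RNA of 8 sorted liver endothelial samples was labelled as biotin cRNA from 100 pg of total RNA with an Affymetrix kit, per the labels' protocols. The deposited values are the authors' normalized intensity per probe set, linear in scale; how they were summarized, corrected for background and normalized is not given in the sources used here. Their table also holds a fold (ratio of group means) and an unadjusted p-value of an unnamed test, per the file headers. Samples were grouped by title. Values were log2 transformed. Of 22206 gene probe sets, 22203 were complete; those with several symbols were left out, and the brightest probe set was kept for each of 21160 genes. Limma 3.58.1 in R 4.3.3 (lmFit, eBayes, no covariate) was fitted to all genes, two-sided, adjusted by Benjamini-Hochberg at 0.05; SDs are over 4 arrays. It was tested on simulated data. Pairs were tested by exact permutation in Python 3.11.15 with scipy 1.17.1. The number of arrays limits precision, and since no source names separate animals, p-values measure the spread of these samples, which may be technical. The members, lists, motifs and the rule for named genes (all members, the largest differences in each pathway list, the smallest p in each marker list, and the most similar genes) were chosen with earlier results of these data known. Same-numbered samples were not treated as pairs, since no source ties a number to a mouse. The deviations from group means of same-numbered arrays correlated at 0.159, 0.0194, 0.0999 and 0.0781. Those of differently numbered arrays correlated at -0.130 to 0.0666. All same-numbered values except 0.0194 lay above that range, so these correlations are no ground against pairing. Alternatives were a replicate block, cyclic loess or quantile normalization, a filter on dim genes, means of probe sets, trended and robust eBayes, array weights, subtraction of the pan-endothelial mean, and leaving out arrays.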

Additional observations from a re-analysis of the deposited data

Results flagged for a closer look

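In 3 of 68 groups of 4 arrays, 1 array stood far from the others by Dixon's ratio of gap to range, where chance alone gives about 5% of groups. They were Rgma on YFP+ replicate 3 (8.98 log2, the highest of its group), Smad1 on YFP+ replicate 2 (9.43 log2, the lowest of its group) and Id4 on YFP- replicate 3 (8.89 log2, the highest of its group). None of the 10 BMP axis genes met this mark in either population.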

How the results depend on the processing

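Recomputations were counted per gene and setting over the 10 BMP axis genes. The direction of the gene and the absence of a call held in 160 of 167. The other 7 came from subtracting the pan-endothelial mean, which gave log2 differences of 0.0215 for Bmp2, 0.0712 for Bmp6, 0.0298 for Eng, 0.155 for Bmpr2, 0.139 for Smad6 and 0.0636 for Id3, each with the sign turned, and called 1 member, Id1 (0.71). That step adds the same amount to every gene's difference. Some of the 160 could not have turned direction. The replicate block, trended and robust eBayes, the filter on dim genes and means of probe sets leave these log2 differences unchanged. Under those settings only the call could change. The number of genes called over the whole table was 340; it was 3350 after the same subtraction, 695 with array weights, 586 without YFP+ replicates 2 and 3, and 115 to 636 without each array in turn (highest without YFP+ replicate 3), staying within 1.5 times only without YFP+ replicate 2 (329). Of the within-array ratios, 63 of 66 recomputations, counted per pair and setting, kept direction, but the replicate block and means of probe sets could not have turned it. With arrays left out or paired, the exact test cannot pass, so no call is read from them. Bmp4 to Bmp2 turned to 0.0153 without YFP+ replicates 2 and 3. Bmp6 to Bmp2 lay between -0.00818 and 0.103 without each array in turn. It was -0.00818 without YFP- replicate 2 and -0.00131 without YFP+ replicate 4. The cause of these turns was not tested. With the replicate number as a block, 241 genes were called and none of the 10, with adjusted p-values in limma of 0.0730 for Bmp4 and 0.0883 for Smad7; only YFP+ replicates 1, 3 and 4 correlated best with the YFP- array of their own number. The paired exact test of the ratios cannot go below p = 0.125. Bmp4, Acvrl1 and Smad7 had no value when dim genes were left out. Arrays give no counts, so the limits are the number of arrays and, for dim genes, the signal over the negative controls.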

Other observations

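The TGF-beta and activin branch, which shares the common partner Smad4 with the BMP branch, had no call among 15 measured genes, with 12 negative and 3 positive differences and a median of -0.07 log2. Its largest difference was that of Acvr1c, a type I receptor of activin and Nodal ligands, which had a mean of 6.20 ± 0.09 in resident and of 7.56 ± 0.79 log2 in marrow-derived cells (SD, n = 4) without overlap, a difference of 1.37 (limma adjusted p = 0.0722). Tgfb3, a TGF-beta ligand, had a difference of 0.62 without overlap (limma adjusted p = 0.115) and Smad2, which carries the TGF-beta signal, of -0.75 with overlapping groups (limma adjusted p = 0.324). Acvr1c and Smad2 exceeded the control percentile on no array and Tgfb3 on 4. On every YFP- array Acvr1c lay below even the median of the negative controls, so its difference sets no bound on the transcript.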
